A study of Mus musculus with 6 samples.

Results

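The members described here are TCR-β clonotypes whose CDR3 carries a cysteine in its inner part, in CD4+ T cells of the obstructed kidney and of the spleen. A clonotype was 1 CDR3 nucleotide sequence with 1 Trbv and 1 Trbj gene. It was coding when its translated CDR3 held neither a stop codon nor a shift of frame, and it was a member when a cysteine lay anywhere from position 4 to the third residue from the end, with the conserved start cysteine counted as position 1. Of 330061 coding clonotypes in 6 libraries, 208 were members, 207 of them in the 3 spleens and 1 in a kidney. Their unique molecular identifiers (UMIs, tags that mark single TCR-β mRNA molecules) numbered 276 of 485439 in coding clonotypes.

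The libraries came from 3 mice, each of which gave CD4+ T cells from the left kidney and from the spleen. In all 3 mice a clip closed the right ureter on day 0 and was taken off on day 6 (RUUO, a reversible obstruction on one side), the left ureter was tied on day 17 (UUO), and the organs were taken on day 22. The mice were wildtype C57BL/6 animals, and no sham-operated or untreated animal was among the samples, so both groups share both operations. Kidney cells passed a negative selection before the CD4 microbeads and the flow sort that both organs received, so organ and isolation cannot be told apart. Markers of CD4+ T cells were not checked here, since a TCR-β clone table carries none.

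CDR3 is the loop of the T cell receptor formed where the V, D and J gene segments are joined. Its ends are encoded by the germline segments, and its middle, which lies over the peptide in the MHC groove, is shaped by trimming and by bases added without a template. A free cysteine near the middle of CDR3 is known to favor binding to many peptide-MHC complexes, and thymocytes bearing such receptors are known to be deleted or diverted from the conventional CD4+ and CD8+ lineages. Out-of-frame rearrangements are made by the same recombination but yield no receptor chain, so they pass through the thymus without selection for what they would encode. The clone files list them beside the coding ones, with each end translated in its own frame.

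The following 4 clonotypes are shown because they are the only kidney member and the member with the most UMIs in each spleen. Each CDR3 is written 5′ to 3′ with the codon of the inner cysteine in capitals.
Kidney 2, Trbv13-2 and Trbj2-5: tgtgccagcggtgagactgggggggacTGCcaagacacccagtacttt
Spleen 1, Trbv20 and Trbj2-3: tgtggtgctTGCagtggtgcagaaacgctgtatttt
Spleen 2, Trbv13-3 and Trbj2-7: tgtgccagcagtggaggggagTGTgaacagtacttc
Spleen 3, Trbv5 and Trbj2-3: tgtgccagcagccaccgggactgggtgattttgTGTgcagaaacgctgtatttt

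These members held 1, 3, 5 and 3 UMIs, in the order listed. The kidney clonotype had its cysteine at position 10 of 16 residues, and the spleen ones at position 4 of 12, position 8 of 12 and position 12 of 18. In the spleen 2 clonotype the first 2 bases of the cysteine codon were placed outside V, D and J and the last base in Trbj2-7. That arrangement, in which the junction supplies all but the last base, was found in 50 of the 207 spleen members. In 49 the codon lay wholly in added bases.

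Cysteine was nearly absent from the inner CDR3 of coding clonotypes in all 3 spleens. Spleen 1 had 60 members among 109838 coding clonotypes, 0.0546% (95% exact binomial interval 0.0417 to 0.0703%). Spleen 2 had 98 of 140429, 0.0698% (0.0567 to 0.0850%). Spleen 3 had 49 of 78078, 0.0628% (0.0464 to 0.0830%). The mean was 0.0624% ± 0.00759 (SD, n = 3), and the 3 intervals overlapped each other. As a share of UMIs the members held 0.0571% ± 0.00673 (SD, n = 3). Intervals here and below cover counting error only.

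Out-of-frame clonotypes of the same spleens carried an inner cysteine far more often. The counts were 167 of 7185 in spleen 1, 198 of 9539 in spleen 2 and 94 of 4325 in spleen 3, which gave shares of 2.32, 2.08 and 2.17%. Out-of-frame over coding, the shares stood at 42.5-fold, 29.7-fold and 34.6-fold, so no library of one kind came near the other. In-frame clonotypes with a stop codon, a second kind that gives no receptor, had 8 of 298, 5 of 364 and 6 of 189 with an inner cysteine, pooled 2.23% (1.35 to 3.46%). That interval holds the out-of-frame share and lies above every coding one. The UMI depth differed beside this contrast, as 90.3 to 95.9% of the out-of-frame clonotypes without an inner cysteine had a single UMI, against 65.0 to 81.9% of the coding ones. The part of this in the result was not tested. With UMIs in place of clonotypes the residue comparison below gave a cysteine difference of -5.27 on the log2 scale.

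**Figure D1:**
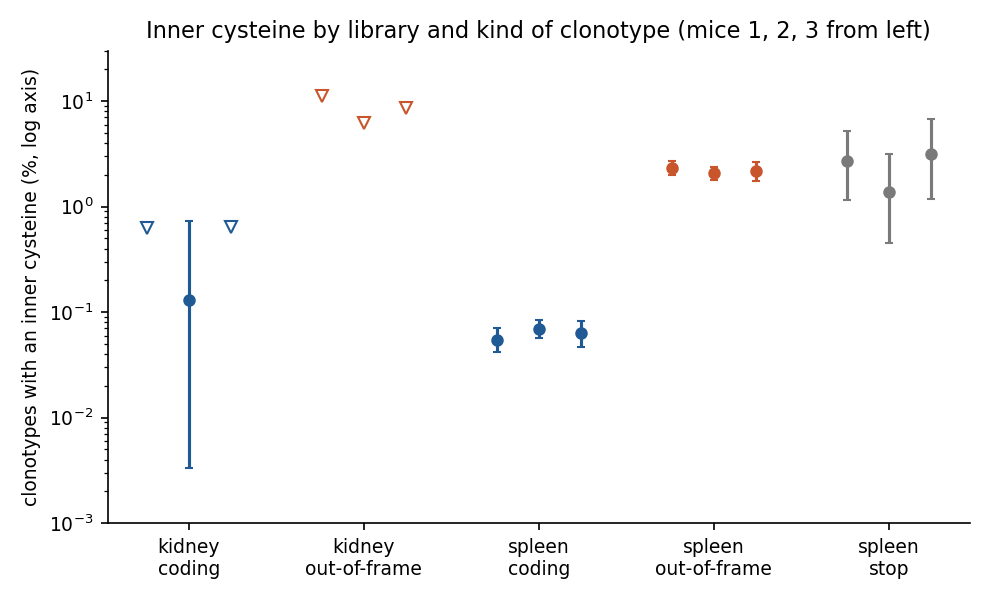
Share of clonotypes with an inner cysteine (percent, log axis) by organ and kind of clonotype, mice 1 to 3 from left to right in each set. Filled points are measured shares with 95% exact binomial intervals, and open triangles mark the share that 3 counts would give where no member was found. The 3 spleen coding libraries sit between 0.0546 and 0.0698%, and the 3 spleen out-of-frame libraries between 2.08 and 2.32%.

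To see whether other residues differed in the same way, spleen clonotypes were counted by the residues of their inner part. A clonotype counted once for each residue it held, however often that residue occurred, and counts were set against all inner residues. The 20 residues were compared in 1 edgeR quasi-likelihood fit with mouse as a paired term. Passing the test was common, as 16 of 20 residues, or 80%, had an adjusted p under 0.05, 5 of them higher and 11 lower in coding clonotypes. The split moved with the scaling, to 9 higher and 7 lower with TMM and to 6 higher and 7 lower with DESeq2. Size set cysteine apart. Relative to all inner residues of their kind, coding clonotypes with a cysteine stood at 0.00617, 0.00788 and 0.00709%. Out-of-frame ones stood at 0.274, 0.244 and 0.255%. The mean log2 ratio by mouse was -5.20 ± 0.26 (SD, n = 3), which is 36.7-fold lower in coding clonotypes, and the edgeR estimate was -5.16 (adjusted p = 7.74e-06).

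The next residues in size were lysine at -0.61 ± 0.09 and histidine at -0.58 ± 0.02 on the same scale (SD, n = 3), both with positively charged or ionizable side chains. The residues fixed in the list beside cysteine moved by much less. Tryptophan, the bulkiest aromatic residue, was lower in coding clonotypes by a mean log2 ratio of -0.13 ± 0.01, and serine by -0.08 ± 0.0037. Glycine, the most flexible residue, was higher by 0.11 ± 0.01. All of these passed the edgeR test (adjusted p = 1.52e-05, 1.02e-05, 0.00157, 1.33e-05 and 7.74e-06). Other scalings ended the calls of serine (adjusted p = 0.181 with TMM and 0.422 with DESeq2) and of tryptophan (0.0580 and 0.119), and tryptophan also lost its call without the replicate block (0.0731). Methionine, the other sulfur-containing residue, had log2 ratios of -0.25, 0.36 and 0.50 in the 3 mice and did not pass (adjusted p = 0.335).

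**Figure D2:**
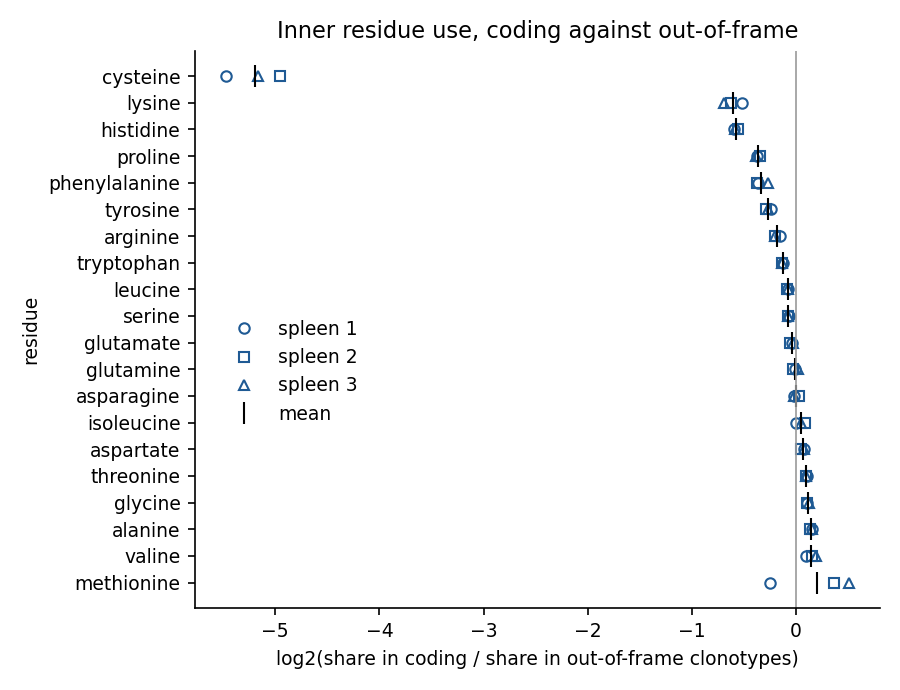
Log2 ratio, coding over out-of-frame, of the number of clonotypes that hold each inner residue relative to all inner residues. There is 1 symbol per spleen and a bar at the mean of 3 mice. Cysteine lies between -5.47 and -4.95, while the residue next to it, lysine, has a mean of -0.61.

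The cysteine was not spread evenly along the loop. Position 4 was the most frequent site with 59 of 207 spleen members (28.5%), followed by position 9 with 31 and position 5 with 29. In 100 of 207 members (48.3%) the cysteine lay within 2 positions of the middle of the CDR3, where 333 of 459 out-of-frame clonotypes (72.5%) had theirs. Only 1 spleen member carried more than 1 inner cysteine.

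At position 4, coding clonotypes carried a cysteine about as often as out-of-frame ones. The counts were 59 of 328328 coding clonotypes, 0.0180% (0.0137 to 0.0232%), and 5 of 21001 out-of-frame ones, 0.0238% (0.00773 to 0.0556%), so the intervals overlapped. The same held at position 3, just outside the window. There Trbv1 carries a cysteine of its own, and without Trbv1 the shares were 0.0505% in coding and 0.0507% in out-of-frame clonotypes. From position 5 the picture changed. Coding clonotypes had 0.00883% at position 5, 0.00457% at position 6 and 0.00549% at position 7, whereas out-of-frame ones had 0.374, 0.403 and 0.402%. These are differences of 42.3-fold, 88.2-fold and 73.3-fold. Members whose first inner cysteine lay at position 5 or later made up 0.0382, 0.0484 and 0.0487% of coding clonotypes in the 3 spleens, against 2.31, 2.04 and 2.15% of out-of-frame ones, or 60.4-fold, 42.2-fold and 44.2-fold.

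Toward the other end the gap was narrower. Counted from the last residue, out-of-frame over coding stood at 113-fold at the eighth position, 96.3-fold at the seventh, 42.4-fold at the sixth, 10.4-fold at the fifth, 9.40-fold at the fourth and 20.8-fold at the third. The fourth rests on 5 coding and 3 out-of-frame clonotypes, and the third on 3 and 4. The out-of-frame count behind the eighth was 10 of 2208, because the frame is lost near the middle of these sequences and few reach that far.

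**Figure D3:**
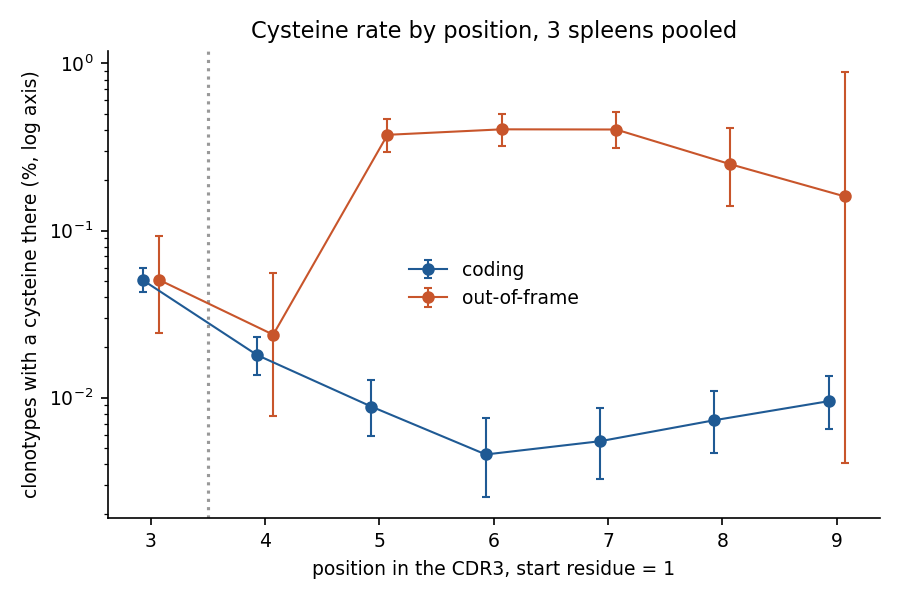
Share of spleen clonotypes with a cysteine at each CDR3 position (percent, log axis), counted from the start residue, with 95% exact binomial intervals over the 3 spleens pooled. Position 3, left of the dotted line, lies outside the rule and is drawn without Trbv1. The coding and out-of-frame points overlap at positions 3 and 4 and are 42.3-fold apart at position 5, and position 9 rests on 625 out-of-frame clonotypes.

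Members with the cysteine at position 4 also differed in where the codon came from. The following 3 were chosen after their values were seen, to show a codon placed in V, 1 placed in added bases and 1 with a base each from V, added bases and D.
Spleen 2, Trbv31 and Trbj1-6, codon in V: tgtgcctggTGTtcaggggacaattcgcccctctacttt
Spleen 2, Trbv13-3 and Trbj1-3, codon in added bases: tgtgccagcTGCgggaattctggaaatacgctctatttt
Spleen 2, Trbv12-2 and Trbj1-1, codon across V, added bases and D: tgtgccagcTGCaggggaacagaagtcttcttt

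Of the 59 position 4 members, 20 had a codon that the alignment placed wholly in V and 21 wholly in added bases. Among the 119 with a cysteine at position 6 or later none lay wholly in V, 26 lay in added bases, 15 in J and 76 across a junction. A serine codon differs from a cysteine codon by 1 base, and serine is frequent in the V end. For 9 of the 59 position 4 members, the same spleen held a clonotype with the same V and J that differed by 1 base in that codon and read serine. This was so for 4 of the 119 members at position 6 or later. For any 1-base difference in that codon, whatever it read, the counts were 9 of 59 and 14 of 119. Clonotypes of the same spleen, V and J that differed by 1 base anywhere in the CDR3 held at most 8 UMIs across all members. Of the 207 members, 4 had a neighbour at 1 base with at least 5 times their UMIs. Whether some position 4 codons arose by a read or copy error was not tested.

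Split by the source of the codon, the contrast between the kinds was seen for codons in added bases, across a junction, in D and in J. Codons placed wholly in added bases occurred in 12, 27 and 10 coding clonotypes of the 3 spleens (0.0149% pooled) and in 23, 27 and 24 out-of-frame ones (0.352% pooled), a 23.6-fold difference. The mean number of added bases was 3.10 in coding and 3.51 in out-of-frame clonotypes. Codons across a junction differed 36.5-fold. Codons wholly in D occurred in 5 coding and 17 out-of-frame clonotypes, a 53.0-fold difference in share. Codons wholly in J occurred in 16 coding and 96 out-of-frame clonotypes, a 93.6-fold difference in share. In an out-of-frame clonotype the V frame can run into J bases that are never read in that frame in a receptor, and without all J codons the difference was 29.6-fold. Codons wholly in V occurred in 31 coding and 24 out-of-frame clonotypes, a 12.1-fold difference in share. Outside the 3 V genes described next they occurred in 20 coding and 1 out-of-frame clonotypes, or 0.00609 and 0.00475% of all clonotypes of their kind. With 1 out-of-frame clonotype these shares cannot show whether the kinds differ there.

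Members had more bases outside V, D and J than other coding clonotypes, with means of 4.50, 4.74 and 4.35 bases against 3.10, 3.11 and 3.07. Members lay above the others in every mouse, by a mean of 1.43 bases (exact sign-flip permutation p = 0.25, the smallest that 3 pairs allow). In 129 of 207 members the first base of the cysteine codon was itself an added base. The rule thus selects for added bases, and the test cannot tell this from a trait of the members. Out-of-frame clonotypes with an inner cysteine had a mean of 5.59 such bases, against 3.51 over all out-of-frame ones. The median length was 14 residues in members and in others, but the share of members was higher among short and long CDR3. It was 0.329% at 10 residues (7 of 2127), 0.0509% at 14 (52 of 102112) and 0.138% at 17 (8 of 5810). The 2 cysteine codons were used 114 times (TGC) and 93 times (TGT).

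The V genes of the members separated into a small set with a high share and a large remainder. Over the 3 spleens 24 Trbv genes were seen, and edgeR compared their use by members with their use by other coding clonotypes. It called 5 of 24, or 20.8%, of which 4 were higher and 1 lower in members.

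Trbv22, which RefSeq annotates as a pseudogene at chr6:41212075-41212534 (GRCm38.p6), had the highest share. Members made up 4 of 9 coding Trbv22 clonotypes in spleen 1, 5 of 8 in spleen 2 and 5 of 10 in spleen 3, in all 51.9% (exact interval 31.9 to 71.3%). The edgeR log2 difference was 10.68 (adjusted p = 2.88e-28, and 3.76e-10 to 0.0184 with 1 mouse left out). Coding refers here to the CDR3 alone and says nothing of defects elsewhere in a V gene. RefSeq gives the pseudogene label also to Trbv29, where 6 of 4236 coding clonotypes were members (0.142%), and not to Trbv21 or Trbv24. The following Trbv22 members, one from each spleen and chosen after their values were seen, show the cysteine codon at the same place, position 5. The alignment placed this codon wholly in V in 11 of the 14 Trbv22 members and its first 2 bases in V in 13. The rule thus selects for Trbv22 through bases of the gene itself, and the edgeR test cannot tell this from a trait of the members.
Spleen 1, Trbv22 and Trbj2-4: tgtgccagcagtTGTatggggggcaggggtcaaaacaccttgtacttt
Spleen 2, Trbv22 and Trbj1-6: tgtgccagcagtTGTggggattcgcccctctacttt
Spleen 3, Trbv22 and Trbj2-7: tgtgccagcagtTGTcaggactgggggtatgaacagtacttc

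Trbv24 (chr6:41218091-41218557) had 3 members of 217 coding clonotypes, 5 of 262 and 2 of 114, or 1.69% (0.812 to 3.08%), with an edgeR log2 difference of 4.77 (adjusted p = 1.33e-08). Trbv21 (chr6:41202587-41203044) had 0 of 37, 2 of 56 and 1 of 24, or 2.56% (0.532 to 7.31%), with a log2 difference of 5.36 (edgeR adjusted p = 0.000408). Without mouse 2 both lost their call (adjusted p = 0.105 for Trbv24 and 0.688 for Trbv21).

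These 3 genes were also the ones with fewer coding than out-of-frame clonotypes, a grouping made after the data were seen and without the use of the cysteine. Trbv22 had 27 coding against 71 out-of-frame clonotypes, Trbv24 had 593 against 1776, and Trbv21 had 117 against 126. In all other V genes coding clonotypes were at least 1.79 times as many. Within the 3 genes together, 27 of 737 coding clonotypes carried an inner cysteine, 3.66% (2.43 to 5.29%), and 75 of 1973 out-of-frame ones did, 3.80% (3.00 to 4.74%). These pooled shares rest largely on Trbv22, and the genes differed in direction. The coding and out-of-frame shares were 51.9 and 38.0% in Trbv22 (27 of 71 out-of-frame), 1.69 and 2.70% in Trbv24 (48 of 1776), and 2.56 and 0% in Trbv21 (0 of 126, which allows up to 2.38%). In the remaining genes the shares were 180 of 327608, 0.0549% (0.0472 to 0.0636%), and 384 of 19076, 2.01% (1.82 to 2.22%), or 43.3-fold, 31.1-fold and 40.0-fold by mouse. The edgeR cysteine difference between coding and out-of-frame clonotypes was -5.25 without the 3 genes.

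**Figure D4:**
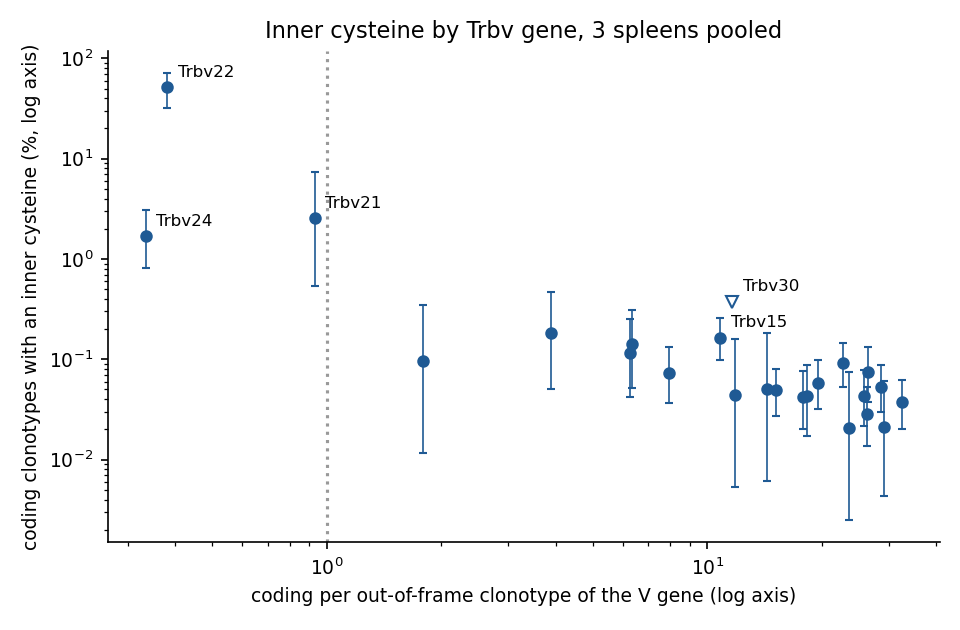
Share of coding clonotypes with an inner cysteine (percent, log axis) for each Trbv gene against its number of coding per out-of-frame clonotypes (log axis), over the 3 spleens pooled. Bars are 95% exact binomial intervals, the open triangle is the share that 3 counts would give for Trbv30, which had no member, and the dotted line marks equal numbers. The 3 genes left of the line have shares of 1.69 to 51.9%, and the measured shares right of it reach 0.184%.

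Among the common V genes the differences were small. Trbv15 (chr6:41141211-41141658), which gave the most members, had 7 of 3673, 7 of 4460 and 4 of 2828 coding clonotypes, or 0.164%, and a log2 difference of 1.39 (edgeR adjusted p = 0.0193). Trbv1 (chr6:40891296-40891885), whose germline CDR3 start already holds a cysteine at position 3, had 3 of 12366, 5 of 14219 and 2 of 8415, or 0.0286%, and a log2 difference of -1.14 (edgeR adjusted p = 0.0234). Neither kept an adjusted p under 0.05 when any 1 mouse was left out (0.112 to 0.25 for Trbv15 and 0.169 to 0.418 for Trbv1). Trbv19 came second by number of members with 17, but 12 of them were from spleen 2. Trbv13-3 and Trbv5 followed with 15 each, and neither passed the test. Trbv30 had no member among 802 clonotypes, which allows a share of up to 0.374% from a floor of 3 counts. Members used 23 of the 24 V genes.

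Members used all 12 Trbj genes. The most used were Trbj2-7 with 49 of 207 members (23.7%, against 16.9% of other coding clonotypes), Trbj2-5 with 31 and Trbj2-3 with 22, and none of these passed the test. edgeR called 1 of 12 genes, or 8.33%. This was Trbj2-2 (chr6:41542957-41543007), with 1 member of 6732 coding clonotypes, 1 of 8295 and 0 of 4983, a log2 difference of -2.66 (edgeR adjusted p = 0.00784). Both of its members used a V gene from the set of 3 above, Trbv24 and Trbv21. The Trbj2-2 call was lost when any 1 mouse was left out (adjusted p = 0.0621 to 0.369). In 81 of the 207 members the last base of the cysteine codon was placed in J.

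None of the members was a large clone. Their largest size was 3 UMIs in spleen 1, 5 in spleen 2 and 3 in spleen 3, whereas other coding clonotypes reached 359, 234 and 101 UMIs. The number of members is small beside the number of others, and the shares of single-UMI clonotypes did not separate the groups. They were 70.0, 74.5 and 79.6% in members and 72.3, 65.0 and 81.9% in others, higher in members in spleen 2 alone (mean difference 1.64 percentage points, exact sign-flip permutation p = 1). The mean size was 1.32, 1.39 and 1.22 UMIs in members and 1.46, 1.60 and 1.25 in others, lower in members in each mouse. Reads per clonotype had medians of 15, 11 and 25 in members and 16, 11 and 24 in others, and the median of the lowest base quality in the CDR3 was 45 in both.

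No member was shared between mice. None of the 60, 98 and 49 spleen members was found in the spleen of another mouse, which allows shares of up to 5.00, 3.06 and 6.12% from a floor of 3 counts. Of the other coding clonotypes 7.71, 6.61 and 8.94% were found in another spleen. The members lay below the others in all 3 mice (mean difference -7.75 percentage points, exact sign-flip permutation p = 0.25, the smallest that 3 pairs allow). With clonotypes matched by amino acid sequence, V and J, the share was again 0 of 207 members, which allows a share of up to 1.45%, whereas 26.0, 23.7 and 28.3% of the others were shared. Out-of-frame clonotypes without an inner cysteine were shared in 34 of 20590 cases by nucleotide sequence, or 0.165%. By amino acid sequence, V and J they were shared in 466 of 20590 cases (2.26%), and out-of-frame clonotypes with an inner cysteine in 4 of 459 (0.871%). Members also had more added bases than other coding clonotypes, as given above. The part of this in the lower sharing was not tested.

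In the kidney the depth did not allow a comparison of much precision. The kidney libraries held 483, 760 and 473 coding clonotypes and had 0, 1 and 0 members. For the 2 libraries without a member, 3 counts would be 0.621 and 0.634%, so shares up to those values are allowed. Pooled, the kidney share was 1 of 1716, 0.0583% (0.00148 to 0.324%), an interval that holds the spleen share of 0.0630%. By mouse the kidney mean was 0.0439% ± 0.0760 (SD, n = 3), and the difference from the spleen was not detectable at this depth (exact permutation p = 0.8, where 3 against 3 cannot go below 0.1). Fisher's exact test within each mouse, which compares 2 libraries, gave adjusted p = 1 in all 3. The UMI share was 0.0267% ± 0.0463 in kidney and 0.0571% ± 0.00673 in spleen (SD, n = 3, exact permutation p = 0.4).

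Across the 20 inner residues edgeR called 0 of 20, or 0%, between kidney and spleen, with 0 residues at an unadjusted p under 0.05 and 0 calls by DESeq2. The kidney out-of-frame clonotypes numbered 27, 48 and 35 and held no inner cysteine, 0 of 110, which allows a share of up to 2.73% and so covers the spleen out-of-frame share of 2.18%. The single kidney member had 1 UMI supported by 574 reads. It was not found in the spleen of mouse 2 or in another spleen, whereas 386 of the other 759 coding clonotypes of that kidney were found in the same mouse's spleen.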

How the data were processed

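TCR-β mRNA of sorted CD4+ T cells from 3 kidneys and 3 spleens was amplified by 5′ RACE with UMIs. Per the study's methods, MiXCR assembled the clones, and the labels name GRCm38 and mm10. For each clone the deposited tables give UMI and read counts (whole numbers, not normalized), the fractions of UMIs and reads that the authors' tool derived from them, and a quality score of the CDR3. Counts were used, fractions were not tested, and the score was described. Tables held 734 to 1308 UMIs in kidney (465 to 784 reads per UMI) and 102453 to 236000 in spleen (8.54 to 21.2 reads per UMI). Coding means no stop or frame shift in the deposited CDR3 translation. Bases outside V, D and J and the source of each codon follow the deposited alignment ends.

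The members and lists were chosen with earlier results of these data known. Named V and J genes were those with an adjusted p under 0.05 and the 3 most used (ties included). Named clonotypes were the kidney member and, in each spleen, the member with the most UMIs (ties: reads). By that rule a kidney member needed 2 UMIs or a match in its spleen, and the single one is named though it had neither. Residues were cysteine, tryptophan, methionine, serine and glycine, with lysine and histidine added by size. Other examples are marked in the text. Library shares were compared by exact permutation over 3 against 3 libraries, paired contrasts by exact sign flips over 3 mice, and use of residues, Trbv and Trbj by edgeR 4.0.16 quasi-likelihood fits in R 4.3.3 on features with at least 10 counts, with library totals as size and Benjamini-Hochberg adjustment. Kidney and spleen pairs come from 1 mouse each by their labels. DESeq2 1.42.0, TMM, UMIs in place of clonotypes, no filter, stricter clonotypes, another window and each mouse left out were alternatives. The fits were tested on simulated data. Each mouse gave 1 library per organ, so the exact permutation p-values measure the spread between 3 mice. The edgeR p-values also rest on a dispersion estimated across all features of a fit, and members per V gene and mouse were few. Fisher's test measures counting of clonotypes within a mouse. Kidney was compared with spleen without the pairing by mouse, and the paired form was an alternative. Tables were made with Python 3.11.15, pandas 2.3.3 and scipy 1.17.1. The coordinates of V and J genes are from RefSeq, and all 24 Trbv names matched.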

Additional observations from a re-analysis of the deposited data

How the results depend on the processing

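The cysteine difference between coding and out-of-frame clonotypes kept its direction and its adjusted p under 0.05 in every alternative run, from -5.34 to -5.02 on the log2 scale, also without mouse as a replicate block (-5.17, adjusted p = 6.66e-09) and with non-coding clones of both kinds (-5.17). Kidney against spleen did not pass in any. For the shares this was fixed in advance, as the exact test of 3 against 3 libraries cannot go below 0.1. The share difference of kidney from spleen, -0.0185 percentage points, became 0.00122 with the cysteine sought from position 5 to the fifth from last. With at least 2 UMIs, which leaves out the only kidney member, it was -0.0603 (exact permutation p = 0.1). It ranged from -0.0587 to 0.00358 with 1 mouse left out. It kept its value with mouse as replicate block (exact paired p = 0.75). For the residue fit of the organs the cysteine value of -0.12 became 0.0385 with DESeq2, -0.13 with the replicate block, and -7.78 to 0.35 with 1 mouse left out, where the lowest has no kidney member and is no bound. The UMI share difference ranged from -0.0554 to -0.0148 with 1 mouse left out, and was -0.0517 with at least 2 UMIs (exact permutation p = 0.1). The single-UMI difference became -1.52 percentage points without the 3 V genes with fewer coding than out-of-frame clonotypes, an alternative chosen after seeing the data. It ranged from -2.30 to 3.63 with 1 mouse left out. With clonotypes matched by amino acid sequence, V and J it was 5.81, at 74.7% in members and 68.9% in others. The exact sign-flip permutation p was then 0.25, the smallest that 3 pairs allow. Trbv calls numbered 5, then 3 with DESeq2 and 1 to 3 with 1 mouse left out. Trbj calls numbered 1, then 2 without error-like clonotypes, 2 with TMM, 3 without the replicate block, 0 with DESeq2 and 0 with any 1 mouse left out. Sharing and added bases kept their direction throughout, and their unpaired exact permutation p was 0.1. The single-UMI share has no value for clonotypes of at least 2 UMIs, and the kidney member gives neither a paired contrast nor a value without mouse 2. With 1 kidney member and at most 1716 kidney clonotypes, depth limits every statement on the kidney.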
